A study of Sus scrofa with 8 samples.

Results

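Cholesterol in backfat was followed through 8 genes that cover its synthesis, its control in the endoplasmic reticulum and its release from lysosomes: HMGCS1, IDI1, FDPS, FDFT1, SC5D, INSIG1, NPC1 and NPC2. The genes were named with earlier results of these data known; the rule itself used no measured value, and every probe set annotated with exactly 1 of these symbols was used. This gave 10 probe sets for 7 of the 8 genes, of 23999 probe sets that were not controls. IDI1 was not analysed here. Of the 10 probe sets, 9 passed the filter on low signal, which kept 17999 of the 23999.

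The samples were backfat, the subcutaneous fat of the back, from the mid-body of KNP and YS pigs kept under the same conditions. There were 4 KNP samples from pigs aged 7 months and 4 YS samples from pigs aged 6 months. YS stands for Yorkshire in 1 label, and no label expands KNP. Each sample of total RNA was hybridised to its own Affymetrix porcine array, a 1-colour array of short probes grouped into probe sets. No treatment was named, sex was not stated, and breed and age cannot be told apart. Nothing in the labels ties each sample to a pig of its own, so errors and p-values describe the spread of these arrays, which may be technical.

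Cells make cholesterol from acetyl-CoA through the mevalonate pathway, and take it up in lipoproteins that are broken down in lysosomes. Both supplies meet in the endoplasmic reticulum, where SCAP carries the SREBP transcription factors towards activation when sterol is scarce; INSIG proteins hold SCAP back when sterol is plentiful. Work mainly in human and rodent cells showed that SREBP2 raises the genes of synthesis and uptake together, and that NPC2 and NPC1 pass cholesterol out of the lysosome in sequence. Fat tissue makes little cholesterol for its size but stores much of the body's free cholesterol, largely in its lipid droplets.

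All 8 arrays had been scaled by the authors to the same trimmed mean signal, and their median signals ranged from 165 to 224 in KNP and from 158.2 to 263 in YS. The ratio of 3' to 5' signal of the housekeeping controls, a sign of RNA length, ranged from 4.35 to 560-fold in KNP and from 5.99 to 21.6-fold in YS. It was largest on KNP replicate 1 (560-fold), KNP replicate 2 (60.6-fold) and YS replicate 4 (21.6-fold). Of 8 adipocyte markers 6 were measured, and on every array all 6 exceeded a guide level for background, taken as the 95th percentile over 23 control probe sets that match nothing in pig. Skeletal muscle markers (6 of 10 measured) summed to 51608 in signal on KNP replicate 2 and to between 194 and 468 on the other KNP arrays, against 187 to 549 in YS. None of these 6 exceeded the guide level on all 8 arrays.

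No member probe set tested passed the test for a breed difference, which does not show that the breeds were equal. The INSIG1 probe set left out by the filter is described below. In limma's test over 17999 probe sets 0 of the 9 member probe sets passed an adjusted p of 0.05, the smallest adjusted p among them was 1, and 0 had an unadjusted p under 0.05. Over all probe sets 0% passed the adjusted threshold and 2.84% had an unadjusted p under 0.05. KNP and YS values overlapped for each of the 9, where 1.96% of all probe sets did not overlap. By the probe set with the highest mean of each gene, called its leading probe set below, 4 genes had the higher mean in KNP and 3 in YS. Over all probe sets 49.9% were higher in KNP, and by leading probe sets 3112 of 6006 named genes were. The median log2 difference, KNP minus YS, was 0.19, against 0.013 over 6006 named genes.

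**Figure D1:**
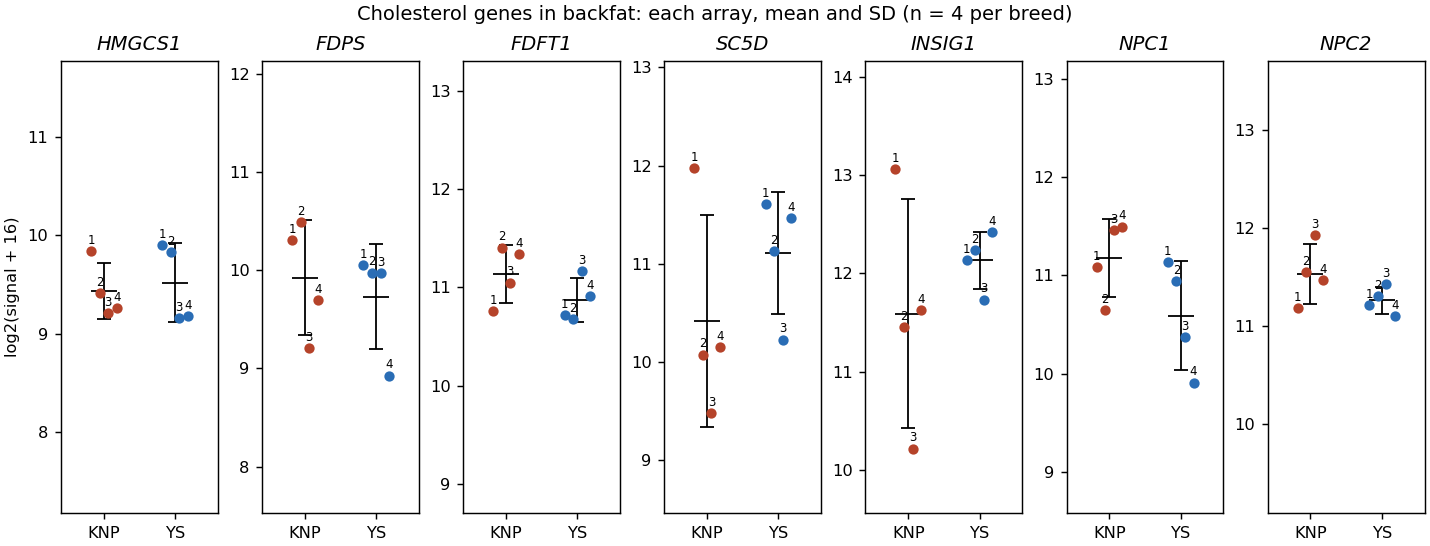
Log2(signal + 16) of the leading probe set of each gene on each array, KNP left and YS right, with the replicate number over each point and bars for the mean and SD (n = 4); each panel spans the same number of log2 units. SC5D and INSIG1 spread most, from KNP replicate 1 at the top to KNP replicate 3 at the bottom, and the breeds overlap in every panel.

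The synthesis enzymes are given in the order in which they act. HMGCS1, the cytosolic HMG-CoA synthase at the head of the pathway, had signals of 899.5, 667, 576 and 598 in KNP replicates 1 to 4, against 938, 894, 555 and 563 in YS replicates 1 to 4. The arrays of both breeds covered almost the same range, with KNP replicate 1 and YS replicates 1 and 2 high. On the log2(signal + 16) scale, used for every log2 value here, HMGCS1 averaged 9.43 ± 0.29 in the KNP arrays and 9.52 ± 0.40 in the YS arrays (SD over n = 4). The log2 difference was -0.085 ± 0.29 (SE), with a 95% confidence interval from -0.73 to 0.56. Its sign depended on single arrays: the difference was 0.042 without YS replicate 1 and 0.020 without YS replicate 2. Its SD within breeds was at or above that of 23.35% of all probe sets tested, against 10.82% for FDFT1 and 77.38% for SC5D.

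FDPS makes farnesyl diphosphate, the branch point to sterols and to prenyl groups on proteins. Its signals were 1250.2, 1421, 576 and 813 in KNP, against 1047, 991, 988 and 470.2 in YS. YS replicates 1 to 3 lay close together and YS replicate 4 stood well below them, while KNP values ran both above and below the YS cluster. The means were 9.92 ± 0.59 in KNP and 9.73 ± 0.54 in YS, a log2 difference of 0.19 ± 0.38 (95% interval -0.67 to 1.05). This difference was 0.0051 without KNP replicate 2, the array with muscle signal, -0.075 without YS replicate 4, and -0.55 without the 3 arrays of largest 3'/5' ratio. FDFT1, the squalene synthase that commits the pathway to sterols, had signals of 1720.4, 2698, 2101 and 2578 in KNP, against 1668, 1621, 2283 and 1913 in YS. KNP replicates 1 and 3 fell among the YS arrays, and KNP replicates 2 and 4 were above all of them. Its means were 11.14 ± 0.30 in KNP and 10.87 ± 0.22 in YS, a log2 difference of 0.27 ± 0.25 (95% interval -0.30 to 0.84).

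SC5D, the sterol C5-desaturase of a late step that turns lathosterol into 7-dehydrocholesterol, varied most among the enzymes. Its signals were 4004, 1064, 698 and 1123 in KNP, against 3103, 2226, 1184 and 2819.8 in YS. KNP replicate 1 was the highest of the 8 arrays, the other 3 KNP arrays were the lowest, and all 4 YS arrays lay between. The means were 10.42 ± 1.08 in KNP and 11.11 ± 0.62 in YS, and the YS mean was 1.61-fold the KNP mean. The log2 difference of -0.69 ± 0.54 had a 95% interval from -1.91 to 0.54 and an unadjusted p of 0.237 in limma. The size of this difference depended on single KNP arrays. Without KNP replicate 1 it was -1.21 (unadjusted p = 0.0142, adjusted p = 0.999, limma). Without KNP replicate 3 it was -0.37.

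INSIG1 encodes the protein that retains SCAP in the endoplasmic reticulum and also helps mark HMG-CoA reductase for breakdown; its own gene is a target of SREBP. The leading probe set had signals of 8524, 2784, 1174 and 3149.5 in KNP, against 4482, 4818, 3388 and 5468 in YS. KNP replicate 1 again exceeded every YS array and the other 3 KNP arrays fell below every YS array. The highest KNP signal was 7.26-fold the lowest, the widest range among the leading probe sets of the 7 genes. Log2 values were 11.59 ± 1.16 in KNP and 12.13 ± 0.29 in YS, and the difference in SD between breeds was not tested. The log2 difference was -0.54 ± 0.53 (95% interval -1.73 to 0.65, unadjusted p = 0.329, limma). Like that of SC5D it hung on 2 KNP arrays: it was -1.03 without KNP replicate 1 (unadjusted p = 0.0286, adjusted p = 0.999, limma) and -0.085 without KNP replicate 3.

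The 3'/5' ratio moved with both genes only in part. KNP replicate 1 had the largest ratio and the largest signals of SC5D and INSIG1. KNP replicate 2 had the next largest ratio (60.6-fold), but its signals of SC5D (1064) and INSIG1 (2784) were below every YS array. With the ratio as a covariate in limma the log2 differences were -1.10 for SC5D (unadjusted p = 0.0326, adjusted p = 0.991) and -0.97 for INSIG1 (unadjusted p = 0.0349, adjusted p = 0.998). These values lay close to the -1.21 and -1.03 found without KNP replicate 1 alone. Without the 3 arrays of largest ratio, which leaves 2 KNP and 3 YS arrays, the differences were -1.17 and -1.11 (adjusted p = 0.601 and 0.607). The other INSIG1 probe set was the one left out by the filter. It had signals of 10.3, 45.2, 3.70 and 5.72 in KNP, against 111, 61.3, 20.5 and 79.8 in YS. It exceeded the guide level for background on 0 KNP and 2 YS arrays, so no fold is given. In a fit without the filter its unadjusted p was 0.0181 and its adjusted p was 1.

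NPC1 and NPC2 hand cholesterol out of the lysosome: NPC2 is the soluble protein of the lumen that binds it first, and NPC1 is the membrane protein that takes it over. NPC1 had signals of 2155, 1590.0, 2812 and 2874 in KNP, against 2238, 1952, 1311 and 946 in YS. KNP replicates 3 and 4 lay above every YS array and YS replicates 3 and 4 below every KNP array, with the others mixed. Its log2 means were 11.17 ± 0.40 in KNP and 10.59 ± 0.56 in YS. The KNP mean was 1.50-fold the YS mean, a log2 difference of 0.58 ± 0.34 with a 95% interval from -0.19 to 1.36. NPC1 had the smallest unadjusted p of the 9 probe sets tested, 0.124 in limma, which put it at rank 1510 of 17999. The difference kept its sign with each array left out in turn, between 0.36 without YS replicate 4 and 0.77 without YS replicate 1.

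NPC2 was read by 3 probe sets, of which the brighter ones did not move together. The leading one had signals of 2308, 2979, 3878 and 2824 in KNP, against 2364, 2515, 2741 and 2177 in YS. KNP replicates 2 to 4 lay above every YS array and KNP replicate 1 lay within the YS range. The log2 means were 11.53 ± 0.31 in KNP and 11.26 ± 0.14 in YS, a difference of 0.27 ± 0.25 (95% interval -0.28 to 0.82), which was 0.14 without KNP replicate 3. The second had signals of 1932, 2055, 1562 and 1443 in KNP, against 2172, 1992, 2304 and 1329.6 in YS. Its difference had the opposite sign, -0.14 ± 0.27 (95% interval -0.75 to 0.46). The third had signals of 304, 101, 25.9 and 47.8 in KNP, against 105, 9.39, 15.0 and 105 in YS; it exceeded the guide level on 1 array of each breed, so no difference is given for it. Over the 8 arrays Pearson's r between the first and second probe sets was -0.085, so the direction given for NPC2 holds for its leading probe set alone.

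**Figure D2:**
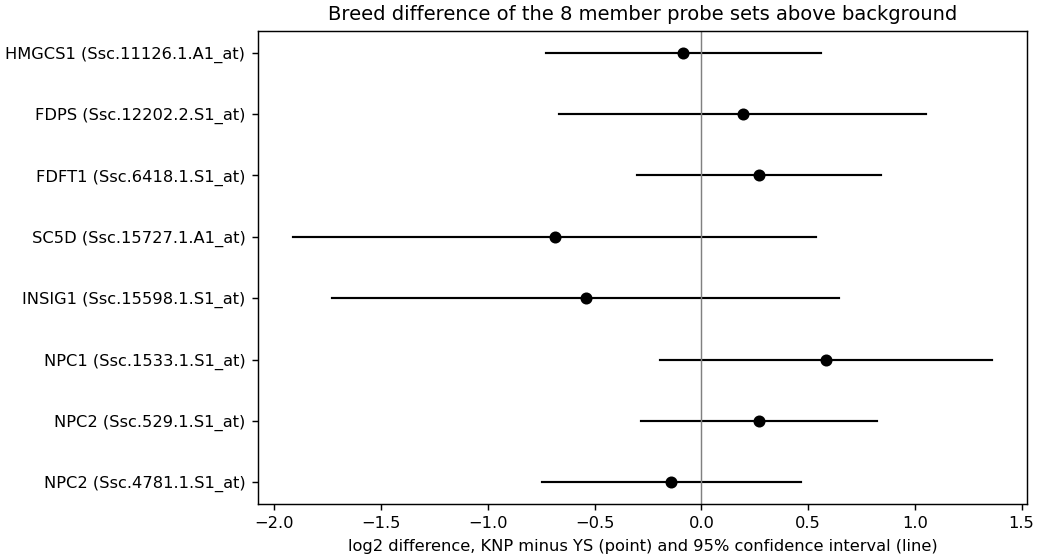
Log2 difference, KNP minus YS, of the member probe sets tested (points) with 95% confidence intervals (lines), leaving out the NPC2 probe set near background. Every interval crosses 0, and the NPC2 probe sets shown fall on both sides of it, at 0.27 and -0.14.

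Synthesis and lysosomal export were then set against each other, and synthesis minus export was on average lower in KNP, though the breeds overlapped. The 4 enzymes measured, HMGCS1, FDPS, FDFT1 and SC5D, averaged 10.23 ± 0.41 in mean log2 value over the KNP arrays and 10.31 ± 0.22 over the YS arrays (SD over n = 4). NPC1 and NPC2 averaged 11.35 ± 0.29 in KNP and 10.93 ± 0.31 in YS. Levels of different probe sets cannot be compared, but the gap between both means can be followed from array to array. Synthesis minus export was -0.41, -0.75, -1.96 and -1.37 in KNP replicates 1 to 4, against -0.61, -0.72, -0.77 and -0.38 in YS. The YS arrays stayed within a narrow band, while KNP replicates 3 and 4 fell below it and KNP replicates 1 and 2 lay in it. The mean gap was -1.12 ± 0.68 in KNP and -0.62 ± 0.17 in YS, a difference of -0.50 that was given no test because it is a score over chosen genes. It was -0.23 without KNP replicate 3, -0.74 without KNP replicate 1, -0.78 with the 3'/5' ratio as a covariate and -0.97 without the 3 arrays of largest ratio. The export mean used only the leading NPC2 probe set, and the second one differed the other way, by -0.14. A score with that probe set in its place was not computed. With the mean of all probe sets of each gene the difference was -0.52, but this took in the NPC2 probe set near background. By itself the synthesis mean differed by -0.077 and the export mean by 0.43, KNP minus YS, and this split changed with the arrays used. Within the synthesis mean SC5D (-0.69) and HMGCS1 (-0.085) were lower in KNP, and FDPS (0.19) and FDFT1 (0.27) higher. The synthesis part was 0.087 without KNP replicate 3, 0.010 without YS replicate 1, -0.24 without KNP replicate 1 and -0.44 without the 3 arrays of largest ratio. The export part was 0.31, 0.51, 0.50 and 0.52 in the same order, and 0.29 without YS replicate 4.

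**Figure D3:**
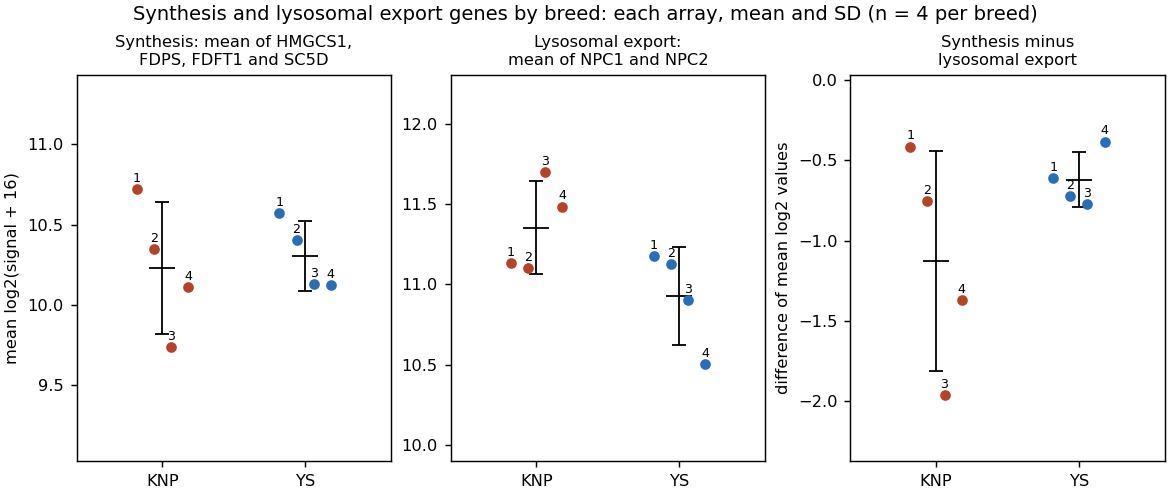
Mean log2(signal + 16) of the synthesis enzymes, of NPC1 and NPC2, and the first minus the second, on each array with its replicate number, KNP left and YS right; bars give the mean and SD (n = 4). The gap spans -1.96 to -0.41 in KNP and -0.77 to -0.38 in YS.

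The clearest regularity among the genes ran across the arrays and not between the breeds. INSIG1 and SC5D went up and down together, with Pearson's r of 0.92 over the 8 arrays and 0.91 after each breed's mean was taken out. The leading NPC2 probe set ran against both, with r of -0.95 to INSIG1 and -0.91 to SC5D, and -0.96 and -0.90 around the breed means. The second NPC2 probe set did not show this: its r was 0.17 with INSIG1 and 0.13 with SC5D. On KNP replicate 1 INSIG1 and SC5D were at their highest and the leading NPC2 probe set near its lowest, and on KNP replicate 3 this was turned round. These are descriptions of 8 arrays that share labelling, scaling and the condition of their RNA. Of the 21 pairs among the 7 leading probe sets 1 had r over 0.9 and 2 had r under -0.9, where 0.34% and 0.247% of all 18033015 pairs of named genes did. These pairs all lie among INSIG1, SC5D and the leading NPC2 probe set, so they do not count as separate results.

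The enzymes did not form 1 block with INSIG1. HMGCS1 leaned the same way as SC5D (r = 0.69) and INSIG1 (0.56), FDPS was nearly unrelated to SC5D (0.16), and FDFT1 ran against SC5D (-0.76) and HMGCS1 (-0.71). NPC1 followed none of the synthesis enzymes closely, with r between 0.31 for HMGCS1 and -0.26 for SC5D, and its r with the leading NPC2 probe set was 0.50. Some of this moved with the arrays themselves. The array's median log2 signal had r of 0.53 with INSIG1, 0.52 with SC5D, -0.54 with leading NPC2 and -0.57 with NPC1, and the 3'/5' difference had 0.60, 0.51, -0.39 and -0.22 with the same genes. Their part in the pattern was not tested.

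**Figure D4:**
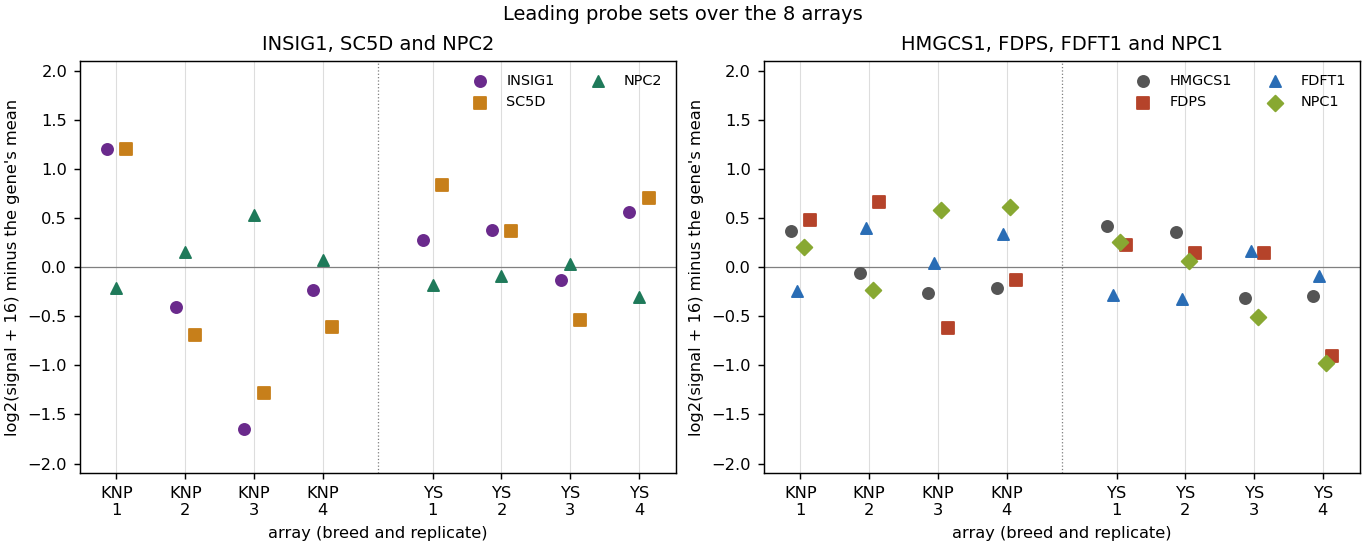
Log2(signal + 16) of each gene's leading probe set minus its mean over the 8 arrays, by array. On the left NPC2 lies across 0 from INSIG1 and SC5D on each of the 8 arrays; on the right the other genes follow no common order.

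No breed difference passed the test in the rest of the cholesterol pathway. Of 56 further genes listed by role 30 were tested. Of these 16 had the higher mean in KNP and 14 in YS, and the median log2 difference was 0.034. In limma 0 of them passed the adjusted threshold and 0 had an unadjusted p under 0.05 by the leading probe set, where 2.84% of all probe sets did. Read the same way, 79 of 6006 named genes had such a p with the higher mean in KNP and 62 with the lower. Among 7 other synthesis enzymes 3 were higher and 4 lower in mean, with a median of -0.075. The smallest p-values among them, which lay close together, belonged to CYP51, the lanosterol demethylase, at 11.48 ± 0.44 in KNP and 11.22 ± 0.37 in YS, and HSD17B7, a 3-ketosteroid reductase of the pathway, at 8.11 ± 0.48 in KNP and 8.37 ± 0.42 in YS. The next, NSDHL, another enzyme of sterol demethylation, was at 8.02 ± 0.79 in KNP and 7.62 ± 0.79 in YS and is named for the same unadjusted p to 3 digits as HSD17B7 (0.439 in limma). The difference was 0.034 for CYP51 without KNP replicate 1, against 0.25 with all arrays, and -0.040 for HSD17B7 without KNP replicate 3, against -0.27.

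Of the genes that control SREBP 4 were tested, with a median of 0.023. SREBF1, which encodes SREBP1, was at 7.41 ± 0.57 in KNP and 7.01 ± 0.50 in YS and exceeded the guide level on 3 arrays of each breed. INSIG2, the partner of INSIG1 that is not induced by SREBP in the same way, was at 8.35 ± 0.86 in KNP and 8.73 ± 0.30 in YS. Its difference of -0.38 was -0.14 without KNP replicate 2 and -0.79 without KNP replicate 4 (unadjusted p = 0.0292, adjusted p = 1, limma). That of SREBF1, 0.39, was 0.19 without KNP replicate 2. Of 3 uptake genes, with a median of 0.020, MYLIP was at 10.31 ± 0.89 in KNP and 10.70 ± 0.49 in YS; its product marks lipoprotein receptors for breakdown. MYLIP had its lowest signal on KNP replicate 1, and without that array its difference of -0.38 was 0.022. The receptor VLDLR was at 10.90 ± 0.12 in KNP and 10.83 ± 0.50 in YS.

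The 9 other lysosomal genes tested had a median of -0.029, with 4 higher and 5 lower in mean. ATP6V1A, a subunit of the proton pump, was at 7.79 ± 0.95 in KNP and 8.46 ± 0.20 in YS, and TFEB, a transcription factor for lysosomal genes, was at 8.51 ± 0.53 in KNP and 8.10 ± 0.34 in YS. On KNP replicate 2 the ATP6V1A signal did not exceed the guide level for background. The ATP6V1A difference of -0.68 was -0.25 without that array and -0.014 without the 3 arrays of largest 3'/5' ratio. In the same order the TFEB difference of 0.41 was 0.24 and -0.15. Efflux and esterification genes had the largest median of these lists, 0.23, with 5 of 7 higher in mean by the leading probe set. Their other probe sets tested ran both ways, with log2 differences of -0.51 and -1.08 for CAV1, -1.27 for APOE and 0.71 for CYP27A1. The APOE and CYP27A1 ones exceeded the guide level on only 2 of the KNP arrays. CYP27A1, the sterol 27-hydroxylase, was at 11.20 ± 0.77 in KNP and 10.37 ± 0.38 in YS. By leading probe sets it had the smallest unadjusted p of the 30 genes (0.0724 in limma, adjusted p = 1). Its highest signal was on KNP replicate 2, and its difference of 0.82 was 0.55 without that array. Without KNP replicate 1 the CYP27A1 difference was 1.08 (unadjusted p = 0.0241, adjusted p = 0.999, limma), and it kept its sign in every setting run. NR1H3, the sterol-sensing receptor LXR alpha, was at 9.20 ± 0.41 in KNP and 8.97 ± 0.20 in YS, a difference of 0.23 that was 0.073 without KNP replicate 3.

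Among 15 tested probe sets that were not the leading one of these genes, 2 (13.3%) had an unadjusted p under 0.05 in limma, where 2.84% of all probe sets did, and 1 had no overlap, where 1.96% did. Both are named after their values were seen, and 0 passed the adjusted threshold. ACAT2, which makes acetoacetyl-CoA for HMGCS1, had signals of 228, 93.8, 181 and 216 in KNP on its second probe set, against 379, 280.0, 271 and 298 in YS. All KNP arrays were below all YS arrays there, with a log2 difference of -0.78 ± 0.31 (unadjusted p = 0.0324, adjusted p = 1, limma). On KNP replicate 2 this probe set did not exceed the guide level for background. The leading ACAT2 probe set differed by only -0.12 ± 0.38. LIPA, the lysosomal acid lipase that frees cholesterol from its esters upstream of NPC2, was at 12.73 ± 0.32 in KNP and 12.05 ± 0.35 in YS on its second probe set. The breeds overlapped, and the log2 difference was 0.68 ± 0.28 (unadjusted p = 0.0384, adjusted p = 1). The leading LIPA probe set leaned the same way, by 0.24 ± 0.33.

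**Figure D5:**
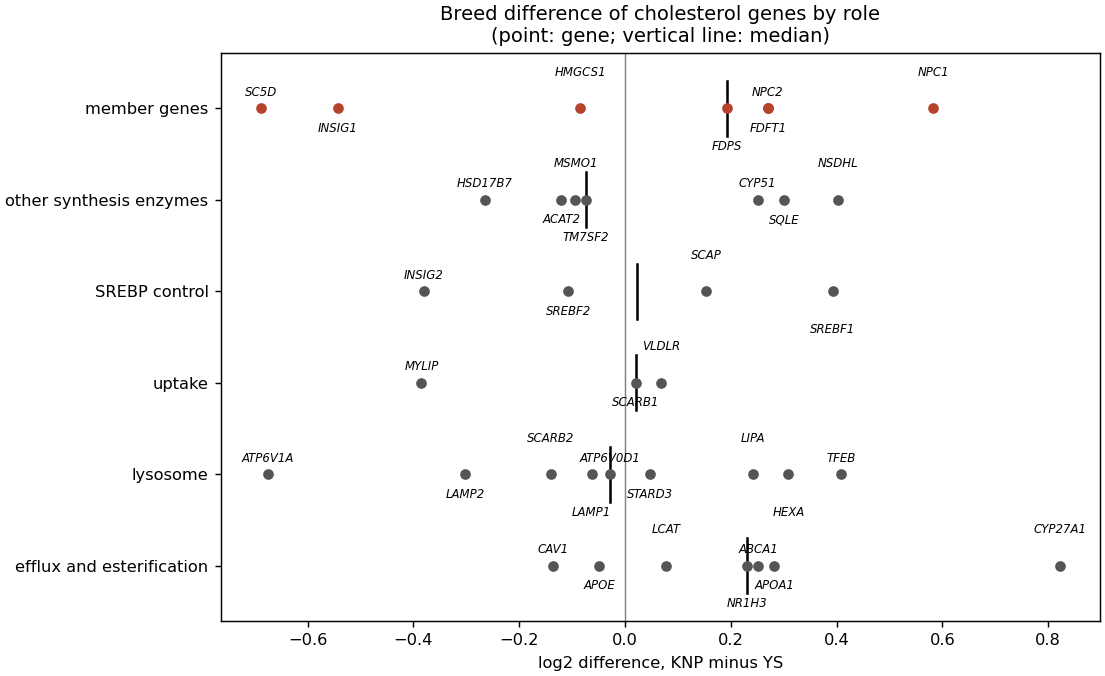
Log2 difference, KNP minus YS, of the leading probe set of each cholesterol gene, by role (points), with the median of each list as a vertical line. Members span -0.69 for SC5D to 0.58 for NPC1, and the medians of the other lists lie between -0.075 and 0.23.

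Macrophages, which take up and export much cholesterol, are a further cell type of fat tissue. Of 10 macrophage markers 7 were measured, 3 with the higher mean in KNP and 4 in YS, and the median log2 difference was -0.18. Their summed signal ranged from 2475 to 5490.0 in KNP and from 3839 to 6915 in YS; of the 7, CD14 and MARCO did not exceed the guide level on all 8 arrays. Adipocyte markers summed to between 80016 and 110136 in KNP and between 74060.5 and 97376 in YS, a sum led by FABP4, and single markers varied more. ADIPOQ, the gene of adiponectin, had signals of 156, 431, 5458 and 3122 in KNP, against 4508, 2302, 3106 and 564 in YS. It was lowest on the 3 arrays of largest 3'/5' ratio. Of the 6 adipocyte markers 4 had the higher mean in KNP and 2 in YS. Among them the lipoprotein lipase LPL alone had no overlap, being lower on every KNP array than on every YS array. Over all probe sets 1.96% had no overlap in either direction. LPL had log2 levels of 13.85 ± 0.34 in KNP and 14.35 ± 0.12 in YS, and did not pass the test (adjusted p = 1, limma). Each of the 4 fibroblast and 4 T cell markers tested had the lower mean in KNP, with median log2 differences of -0.39 and -0.60, and 0 of them passed. Red blood cell markers (2 tested) were lower too, while skeletal muscle (5 tested) and skin (1 tested) markers were higher. The summed muscle signal stood out on KNP replicate 2 alone (51608), and on the other KNP arrays it lay within the YS range. Of 4 endothelial markers tested 2 were higher and 2 lower. Over all probe sets 49.9% had the higher mean in KNP. The summed fibroblast signal ranged from 21044 to 39513 in KNP and from 22879 to 47805 in YS. The summed T cell signal ranged from 216 to 919 in KNP and from 296 to 1103 in YS, and only 1 of the 4 T cell markers exceeded the guide level on all 8 arrays. In bulk tissue fewer cells of a type and less RNA per cell cannot be told apart, and the part of any of these cell types in the values above was not tested.

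Of 5999 other named genes, those whose pattern over the 8 arrays was most like the synthesis mean were MRPS28 (r = 0.98), HSD17B12 (0.98) and ACSS2 (0.97). ACSS2, the cytosolic acetyl-CoA synthetase, ran from 9.39 on KNP replicate 3 to 13.04 on KNP replicate 1 in log2 value, against 10.94 to 12.74 in YS. HSD17B12, a reductase of fatty acid elongation, ran from 11.68 on KNP replicate 3 to 13.70 on KNP replicate 1, against 12.50 to 13.56 in YS. Both were thus lowest and highest on the same arrays as the synthesis mean. Most like the mean of NPC1 and NPC2 were TMEM251 (r = 0.97), PDCD5 (0.94) and ERMP1 (0.94). With 8 arrays and this many genes high values of r are common: 38 genes had r over 0.9 with the synthesis mean and 10 with the export mean.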

How the data were processed

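The deposited table held 1 intensity per probe set and array on a linear scale; the authors' scaling, read from the values, gave each array the same mean after trimming 2% at each end, and no source used here states how probes were summarised. The members and lists were chosen with earlier results of these data known. From the table of 24123 probe sets 124 controls were left out, signals were transformed to log2(signal + 16), and the 25% of probe sets with the lowest mean were dropped. The breed comparison used limma 3.58.1 (R 4.3.3, statmod 1.5.0), two-sided, without covariates, with Benjamini-Hochberg adjustment over 17999 probe sets. The test was tried on simulated data. Gene names came from the platform annotation, which can be old: 10069 probe sets had 1 symbol, 198 several and 13732 none. Each gene's leading probe set had its highest mean; the 2 genes of smallest p were named from each list. Probe sets have no positions here, so no coordinates are given. Alternatives were other filters, normalizations, pseudocounts and variance models, array weights, a replicate block, a 3'/5' covariate and each array left out. The 3'/5' difference was the mean log2 difference of 3' and 5' probe sets of the actin, GAPDH and elongation factor controls. Leaving out the 3 arrays where it was largest was chosen after seeing the data. Array data carry no counts, so the 4 arrays per breed limit the precision.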

Additional observations from a re-analysis of the deposited data

Results flagged for a closer look

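FDPS on YS replicate 4 lay far from the other YS arrays, at a log2 value of 8.93 against 9.97 to 10.05 on YS replicates 1 to 3. The gap to the nearest array was 0.926 of the range of the breed, above Dixon's 95% critical value for 4 samples. Of 22 groups of 4 arrays examined this was the 1 past the critical value, and chance passes about 1 in 20. YS replicate 4 also had the highest median signal (263) and the lowest NPC1 signal (946) of the 8 arrays. The cause was not tested.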

How the results depend on the processing

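In 19 alternative settings 0 member probe sets passed an adjusted p of 0.05; their smallest adjusted p was 0.601, and between 0 and 2 had an unadjusted p under 0.05. Over all probe sets 0 passed in 20 settings, with between 372 and 1492 at an unadjusted p under 0.05 and a smallest adjusted p of 0.0596. FDFT1, SC5D, INSIG1, NPC1 and each NPC2 probe set kept their sign in every setting run. HMGCS1 changed sign without single arrays (range -0.22 to 0.042), FDPS with array weights (-0.16), without YS replicate 4 (range -0.075 to 0.43 with 1 array left out) and when the 3 arrays with the largest 3'/5' ratio were left out (-0.55). Of the other genes, VLDLR changed sign with array weights (-0.054) and with 1 array left out (range -0.17 to 0.23), and MYLIP with 1 array left out (range -0.66 to 0.022). Without the 3 arrays CYP51 (-0.12), SREBF1 (-0.037), INSIG2 (0.061), MYLIP (0.38), VLDLR (-0.12) and TFEB (-0.15) did. The synthesis minus export difference stayed negative, from -0.97 to -0.23. No setting put the second NPC2 probe set in place of the leading one. No label states whether same-numbered arrays are paired. Their deviations correlated at -0.17, 0.022, 0.13 and -0.19, and so few values cannot show whether they are. With the replicate block 0 member probe sets passed and the synthesis minus export difference was -0.50. The causes of these changes were not tested. The 4 arrays per breed limit what the test can detect, and a probe set that did not pass is not shown to be equal in both breeds.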
